A study of Mus musculus with 4 samples.

Results

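The 9 genes described here are members of the Notch pathway: the receptors *Notch1*, *Notch2* and *Notch4*, the protease *Adam10*, the nuclear factors *Rbpj* and *Maml1*, and the target or feedback genes *Hes1*, *Dtx1* and *Nrarp*. They were chosen by name from the 40213 gene symbols of the count files, of which 19815 had a count in at least 1 library. All 9 were counted in all 4 libraries, and 8 passed the filter on low counts and could be tested. The exception was *Nrarp*, with 3 to 7 counts per library.

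Notch receptors are cut by the protease ADAM10 and then by gamma-secretase after they bind a ligand on a neighbouring cell. The freed intracellular part enters the nucleus, where it joins the DNA-binding protein RBPJ and a Mastermind-like co-activator such as MAML1 on target genes. In the spleen, Notch2 signalling in dendritic cells (DCs) is known for its role in the Esam-positive cDC2 subset, and Notch1 is best known for committing progenitors to the T cell lineage.

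The cells were CD24+ emergency progenitors (EPs), CD11c+CD117+ cells that expand in the spleen of mice given the cytokine Flt3L. The paper describes EPs as a mix of DC progenitors and differentiated cDCs, and its RNA-seq methods state no XCR1 gate. Young adult mice received 10 μg of Flt3L-Ig i.p. on days 0 and 3, and the cells were sorted on day 9 for bulk RNA-seq. Both genotypes carried the floxed *Topbp1* allele and received Flt3L-Ig: 2 libraries came from TopBP1 fl/fl littermates (WT) and 2 from TopBP1 fl/fl, CD11c-cre mice (TopBP1cKO), in which the CD11c promoter drives Cre. The labels do not say whether the libraries came from separate mice, so P values measure the spread between these libraries, which may be technical.

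The deleted gene is given first as a check of the labels. *Topbp1* had 1102 and 1143 counts in WT replicates 1 and 2, against 773 and 1279 in the TopBP1cKO pair. The second TopBP1cKO library was thus the highest of the 4, and the log2 fold change of −0.20 ± 0.21 (SE, n = 2 per group) did not pass the test (FDR = 0.774, edgeR quasi-likelihood test). Without TopBP1cKO replicate 2 it was −0.61 (FDR = 0.0104), and without TopBP1cKO replicate 1 it was 0.11. Counts summed over the whole gene cannot tell a transcript without the floxed part from an intact one, so they do not settle the genotype. For the depletion, the paper refers to TopBP1 expression in splenic CD11c+ cells of both genotypes. The group is called the libraries labelled TopBP1cKO, and every direction below rests on that label. Depth was even, at 14561583 to 15193831 counts in total, and the genes of the labelled surface markers CD11c (*Itgax*), CD117 (*Kit*) and CD24 (*Cd24a*) were abundant in all 4, at 383 CPM (counts scaled to the depth of each library) or more. *Xcr1*, whose protein the study's gating used to set cDC1s apart among CD24+ EPs, was also abundant as RNA, at 626 to 753 CPM. TopBP1cKO replicate 2 also stood apart in 20 cell cycle genes, whose summed level was 679 and 631 CPM in WT, 824 in TopBP1cKO replicate 1 and 2280 in replicate 2.

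RBPJ binds DNA at a short core sequence, so the promoter windows of the 9 genes were read for it, and the only matches are shown here because they lie at the *Rbpj* gene itself. RefSeq (GRCm38.p6) gave windows from 250 bases before to 50 after a start site for 8 of the 9 genes, with *Hes1* having no entry. The core TGGGAA, or TTCCCA on the other strand, was present in both *Rbpj* windows and in none of the other 7. Among all 32851 promoters, 8397 held it (25.6%), and the longer form GTGGGAA, which contains the core, was in 2097 (6.38%) and in 0 of the 9 windows. The matches, in capitals, are on the plus strand of chr5:53590167-53590232 and, read on the opposite strand, at chr5:53590251-53590316. They begin 149 and 65 bases before the first of the 2 *Rbpj* start sites, and the second window holds the latter match again, 205 bases before its own start. A match is a description of the letters and not of binding.
Rbpj, core on the plus strand: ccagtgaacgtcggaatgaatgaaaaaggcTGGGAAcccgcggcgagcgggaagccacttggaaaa
Rbpj, core on the minus strand: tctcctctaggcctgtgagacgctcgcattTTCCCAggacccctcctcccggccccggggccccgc

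The CD24+ EPs expressed the receptor, protease and nuclear parts of the pathway, whereas the target and feedback genes on the list were low. On the scale of CPM per kilobase of transcript, which allows levels of different genes to be compared, *Rbpj* was highest at 79.7 to 94.2 over the 4 libraries. *Notch2* followed at 44.0 to 54.3 CPM per kb, so the receptor known from splenic DCs was also the leading receptor here. *Adam10* (17.6 to 20.9 CPM per kb) and *Notch4* (15.2 to 17.4) came next. The ranges of these 4 genes did not overlap, but those of *Adam10* and *Notch4* nearly met, at 17.6 and 17.4. *Maml1* was at 5.08 to 5.82 CPM per kb and *Notch1* at 3.25 to 3.77. *Hes1*, the best known Notch-induced repressor, was at 2.43 to 4.09 CPM per kb, a range that overlapped that of *Notch1*, so the order of the pair is not resolved. *Dtx1* (0.292 to 0.401 CPM per kb) and *Nrarp* (0.0751 to 0.192) were lowest. Transcript lengths covered 75.0% of the counts of *Rbpj*, 68.8% of those of *Notch4* and 45.1% of those of *Dtx1*. The per-kilobase levels of these genes assume the remaining transcripts to be of like length, so the order of *Adam10* and *Notch4* is not resolved.

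**Figure D1:**
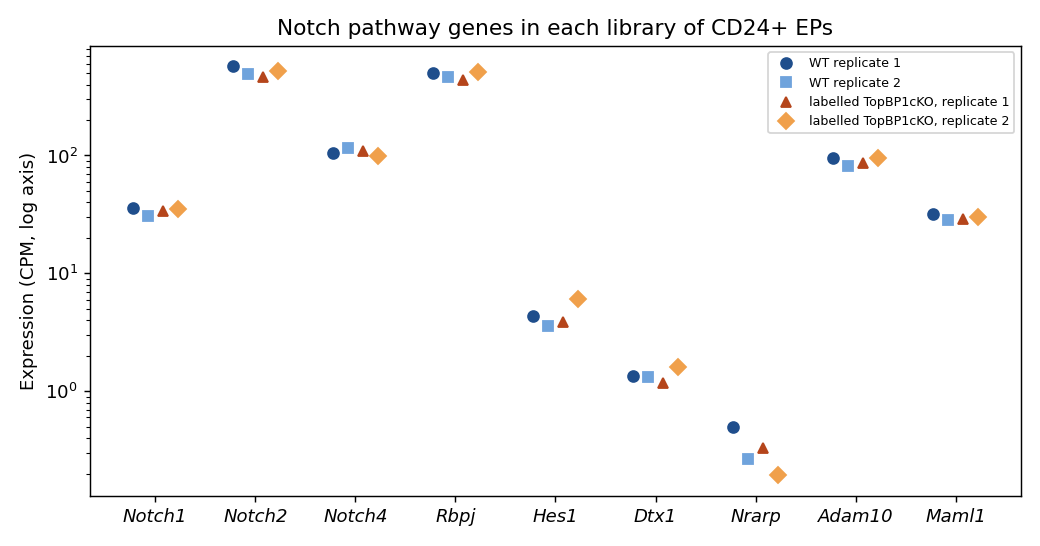
Expression of the 9 Notch pathway genes (CPM, log axis) in each of the 4 libraries, with a symbol per library. *Notch2* and *Rbpj* lie between 434 and 570 CPM in every library and *Nrarp* between 0.194 and 0.495 CPM, and the symbols of both genotypes are interleaved for each of the 8 genes that were tested.

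None of the 9 genes differed between the genotypes beyond the spread of their libraries. In the quasi-likelihood test, 0 of the 8 tested genes passed FDR < 0.05 and 0 had an unadjusted P < 0.05, and the same counts of 0 were obtained with DESeq2, with limma-voom and with the edgeR likelihood ratio test. The background over all 12393 genes tested was 0.105% at FDR < 0.05 (13 genes), 6.95% at an unadjusted P < 0.05 with higher and 3.77% with lower values in the libraries labelled TopBP1cKO. The 2 groups overlapped for all 8 genes, whereas they did not overlap for 43.6% of all genes tested. The median log2 fold change was 0.01 over the 8 genes and 0.01 over all genes, and the median of its size was 0.06 against 0.17. With 2 libraries against 2, an exact permutation test of a single gene cannot give a two-sided p below 0.333.

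Among the receptors, *Notch2* had 8072 and 7407 counts in WT and 7035 and 8110 in the libraries labelled TopBP1cKO. The 2 highest counts thus came from different genotypes. Its log2 fold change was −0.10 ± 0.14 (SE, FDR = 0.83, quasi-likelihood test), with a 95% interval from 0.742-fold to 1.17-fold. Without WT replicate 1, the value was 0.01.

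*Notch1*, the receptor of T lineage commitment, had 507 and 466 counts in WT and 511 and 545 in the libraries labelled TopBP1cKO. As a level, this was 35.8 and 30.8 CPM against 33.5 and 35.2 CPM, so WT replicate 1 was the highest once depth was taken into account. The log2 fold change was 0.05 ± 0.15 (SE, FDR = 0.944). The T cell marker list summed to 12.4 CPM in each WT library, 31.6 in TopBP1cKO replicate 1 and 13.9 in replicate 2, and its part in the *Notch1* level was not tested. The lncRNA gene *0610009E02Rik*, which overlaps *Notch1* and shares most of the 9.4% of its 31-base sequences that occur elsewhere, had 1 to 6 counts per library.

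*Notch4*, a receptor known mainly from endothelium, had 1487 and 1738 counts in WT and 1663 and 1545 in the libraries labelled TopBP1cKO. Both values of the latter lay between those of WT as counts, and at 109 and 99.9 CPM they lay beside 105 and 115 CPM in WT. The difference was −0.07 ± 0.12 (log2, SE, FDR = 0.868). The 7 endothelial and stromal markers summed to 58.4 and 57.2 CPM in WT and 53.2 and 75.1 in the libraries labelled TopBP1cKO. Most of this was *Pecam1*, which had 676 to 795 counts per library, followed by *Kdr* with 87 to 340 and *Cdh5* with 11 to 24. *Tek*, *Pdgfrb*, *Col1a1* and *Ccl21a* had 0 to 7 counts. The part of such cells in the *Notch4* level was not tested. No 31-base sequence was shared between any 2 of the Notch receptor genes. *Notch3*, the remaining receptor, was listed at 0 in WT and had 1 and 5 counts in the libraries labelled TopBP1cKO, and was not tested.

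*Adam10*, the protease of the first ligand-induced cut, had 1352 and 1222 counts in WT and 1306 and 1483 in the libraries labelled TopBP1cKO. Its levels of 95.5 and 95.9 CPM in WT replicate 1 and TopBP1cKO replicate 2 were nearly equal, and the other 2 libraries were lower at 80.8 and 85.7 CPM. Between the genotypes, the log2 fold change was 0.04 ± 0.14 (SE, FDR = 0.945).

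*Rbpj*, the DNA-binding partner of all Notch receptors, had 7038 and 7031 counts in WT. The libraries labelled TopBP1cKO had 6614 and 7927, one below and one above both WT libraries. Their log2 fold change over WT was −0.02 ± 0.14 (SE, FDR = 0.969), and its 95% interval ran from 0.791-fold to 1.22-fold. *Maml1*, the co-activator, had 455 and 424 counts in WT and 443 and 467 in the libraries labelled TopBP1cKO. Its log2 fold change was −0.02 ± 0.15 (SE, FDR = 0.973).

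*Hes1*, which encodes a transcriptional repressor, had the largest change and the smallest P of the 8 genes. It had 62 and 54 counts in WT and 59 and 93 in the libraries labelled TopBP1cKO. Only TopBP1cKO replicate 2 was above the WT libraries, at 6.01 CPM against 3.57 and 4.38, and it is the library with the high cell cycle sum. Its log2 fold change of 0.32 ± 0.32 (SE, FDR = 0.769, quasi-likelihood test) became −0.05 without that library and 0.60 without TopBP1cKO replicate 1. The part of the cell cycle difference in this value was not tested.

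*Dtx1*, which encodes an E3 ubiquitin ligase and is itself a Notch target, had 19 and 20 counts in WT and 18 and 25 in the libraries labelled TopBP1cKO. The log2 fold change was 0.07 ± 0.43 (SE, FDR = 0.972), and its 95% interval, from 0.522-fold to 2.11-fold, shows that a difference of that size was not detectable at this depth. *Nrarp*, a feedback inhibitor induced by Notch, had 7 and 4 counts in WT and 5 and 3 in the libraries labelled TopBP1cKO. With the filter on low counts removed it had no unadjusted P < 0.05. Of its 31-base sequences, 78.2% also occur in the GENCODE gene *Gm38287*, which is not among the genes counted here. The part of that gene in these few counts was not tested, so they are uncertain.

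**Figure D2:**
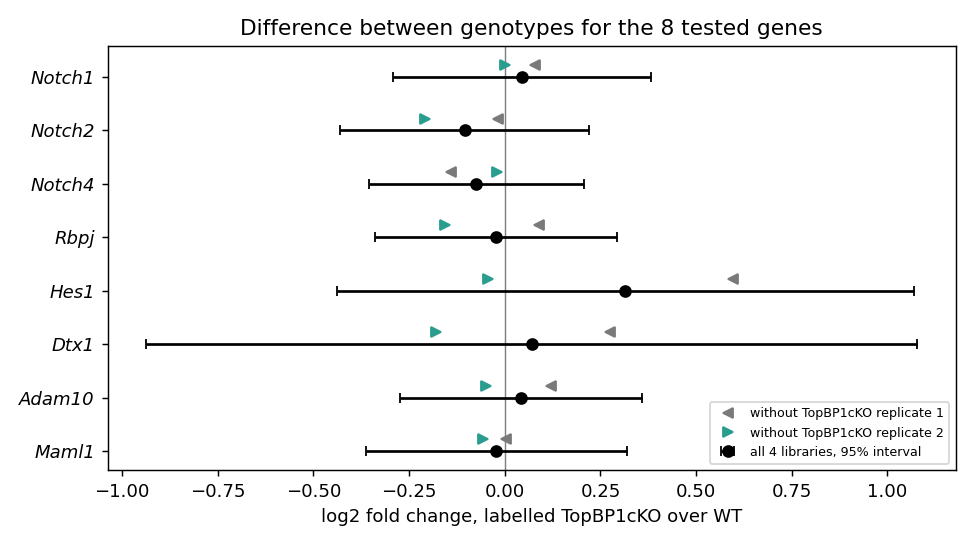
Log2 fold change (libraries labelled TopBP1cKO over WT) of the 8 tested Notch pathway genes, with black points and 95% intervals from all 4 libraries and coloured triangles for fits without either TopBP1cKO library. All 8 intervals include 0, and those of *Hes1* (−0.44 to 1.07) and *Dtx1* (−0.94 to 1.08) are the widest.

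For these genes, libraries of 1 genotype differed from each other by more than the means of the genotypes did. On the log2 (CPM + 0.5) scale, the median absolute difference between the 2 WT libraries was 0.20 over the 8 genes, and that between the 2 libraries labelled TopBP1cKO was 0.17. The difference between group means had a median of 0.05. Over all genes tested, the same medians were 0.135 (WT), 0.235 (labelled TopBP1cKO) and 0.165 (group means). Means of 2 libraries vary less than single libraries, so the within-group and group-mean values are not on an equal footing. The group-mean difference was smaller than the larger within-group difference for 8 of the 8 genes (100%), and for 72.7% of all genes tested. For the 8 genes this follows from the overlap of their groups and is not a separate result. TopBP1cKO replicate 2 was the highest library for 4 of the 8 genes (50%) and for 34.8% of all genes. The highest library exceeded the lowest by 1.15- to 1.24-fold in CPM for the 6 abundant genes, by 1.37-fold for *Dtx1*, 1.68-fold for *Hes1* and 2.55-fold for *Nrarp*.

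Because *Hes1* had the smallest P of the 8, genes with a like pattern over the 4 libraries were looked for. The 3 highest Pearson correlations of log2 CPM belonged to *Ankib1* (r = 1.000), *Smarca5* (r = 0.9999) and *AI225912* (r = 0.9997). *Smarca5*, a chromatin remodelling ATPase, had 2770 and 2673 counts in WT and 2800 and 3530 in the libraries labelled TopBP1cKO. Over only 4 libraries such values are common: 135 of 11386 genes (1.19%) had r of at least 0.99 with *Hes1*.

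The files give counts per transcript, and the split among transcripts varied from library to library. *Dtx1* was all or none: in WT replicate 1 and TopBP1cKO replicate 1 its 19 and 18 counts lay on one transcript, and in the other 2 libraries its 20 and 25 counts lay on another. The switch therefore followed the replicate number and not the genotype. *Notch4* had 1 transcript with 167 counts in TopBP1cKO replicate 2 and 0 in the other 3 libraries. In *Rbpj*, 8 of 9 transcripts were counted, and the largest took 64.0% and 65.6% of the counts in WT and 63.4% and 53.1% in the libraries labelled TopBP1cKO. The share of another *Rbpj* transcript was 11.2% and 10.2% in WT and 14.9% and 18.1% in the libraries labelled TopBP1cKO, from 786, 715, 986 and 1438 counts. Of the 8 counted *Rbpj* transcripts, this was the only one whose shares were both above WT, those of 2 (the largest among them) were both below WT, and those of 5 overlapped. No test was made on transcripts. *Rbpj* also shares 11.8% of its 31-base sequences with other GENCODE genes, mostly with the pseudogene *Rbpj-ps3*, which is not among the genes counted here. *Adam10* had a minor transcript with 106, 16, 0 and 38 counts, *Maml1* had one counted only in WT replicate 2 (26 counts), and *Notch1*, *Notch2*, *Hes1* and *Nrarp* each had a single counted transcript. How reads that fit several transcripts were divided is not given in the sources used here.

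**Figure D3:**
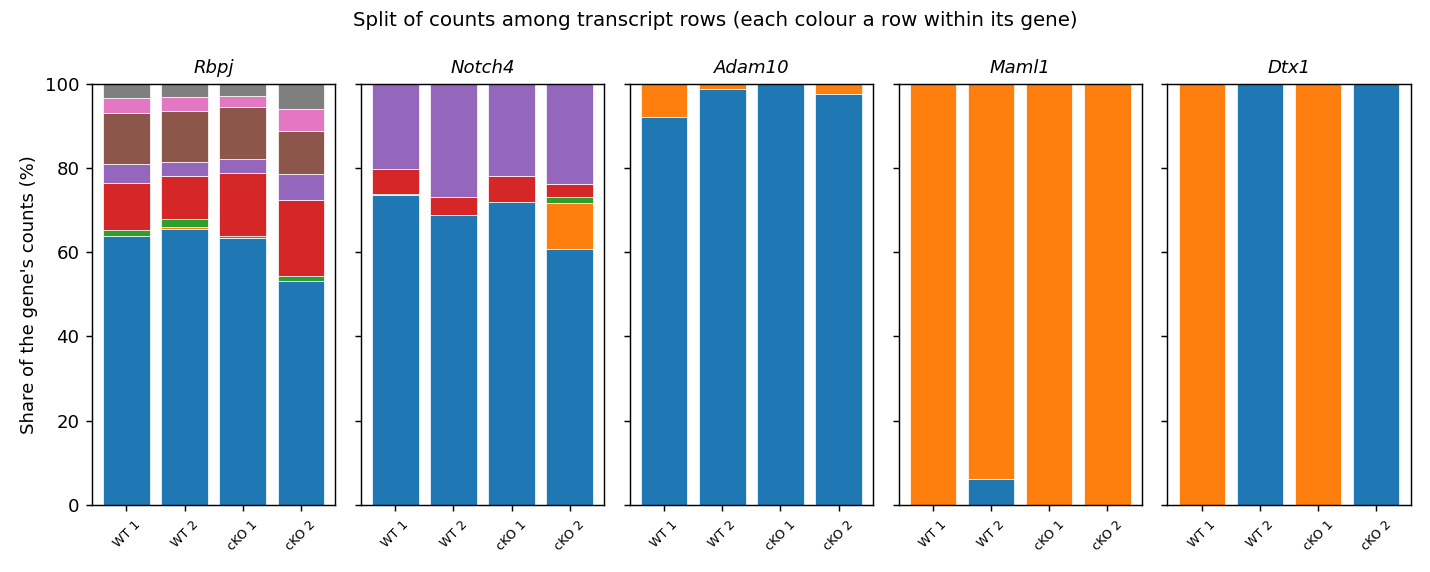
Share of each gene's counts (%) by transcript in the 4 libraries, for the 5 genes with more than 1 counted transcript, each colour marking a transcript within its own panel (cKO, labelled TopBP1cKO). *Dtx1* alternates between 2 transcripts with the replicate number, and the largest *Rbpj* transcript takes 53.1% in TopBP1cKO replicate 2 against 63.4% to 65.6% in the other libraries.

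The 9 genes were set beside 60 other genes of the pathway, 69 in all, of which 56 were tested. None passed FDR < 0.05 in the quasi-likelihood test, with DESeq2 or with limma-voom. At an unadjusted P < 0.05, 2 had higher and 3 had lower values in the libraries labelled TopBP1cKO, where the background shares of all genes are 6.95% and 3.77%. The groups did not overlap for 17 of the 56, with 7 above and 10 below WT, against 43.6% of all genes. The median log2 fold change over the 56 was −0.02. Without TopBP1cKO replicate 1, the single library left in its group being the one with the high cell cycle sum, 15 of the 56 (26.8%) and 20.5% of all genes passed FDR < 0.05.

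The ligands were few. *Jag2* was the most abundant, with 116 and 133 counts in WT and 137 and 210 in the libraries labelled TopBP1cKO (log2 fold change 0.41, FDR = 0.61). *Jag1*, which encodes a Notch ligand of the Serrate family, had 23 and 16 counts in WT and 40 and 71 in the libraries labelled TopBP1cKO. Its groups did not overlap, and 1.43 ± 0.44 (SE, FDR = 0.347, quasi-likelihood test) was the largest log2 fold change of the pathway. It was 0.96 without TopBP1cKO replicate 2, and among the alternatives it passed the test only without TopBP1cKO replicate 1 (1.77, FDR = 0.00692). Of the Delta-like ligands, *Dll1* had 7, 11, 15 and 6 counts (log2 fold change 0.16), *Dll4* had 0 to 3, *Dll3* had 0 in all 4 libraries and the related *Dlk1* had 0 or 1. A count of 0 allows up to 3 counts per library, or 0.194 to 0.212 CPM, a limit that covers counting error only because reads need not be separate molecules.

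None of the tested genes of receptor maturation and cleavage passed FDR < 0.05. Of 6 genes for glycosylation and maturation of the receptor, none had an unadjusted P < 0.05. *Lfng*, a Fringe glycosyltransferase, was the most abundant and the lowest in fold, with 995 and 1340 counts in WT and 1083 and 1050 in the libraries labelled TopBP1cKO (log2 fold change −0.19). *Mfng*, another Fringe gene, had the highest value of the 6 at 0.18. The 8 protease genes beside *Adam10* were also without an unadjusted P < 0.05. Of these, *Aph1b*, a subunit of gamma-secretase, had the highest log2 fold change at 0.02.

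In the nuclear complex, *Ep300*, a histone acetyltransferase, was the most abundant gene beside *Rbpj*, at 3494 to 4497 counts (log2 fold change −0.08). *Maml2*, which encodes a co-activator related to MAML1, had 428 and 433 counts in WT and 310 and 349 in the libraries labelled TopBP1cKO. Both were below both WT libraries, by −0.46 ± 0.15 on the log2 scale (SE, FDR = 0.36). *Maml3*, the third member of the family, stood above WT, with 86 and 99 counts against 117 and 138 (log2 fold change 0.39, FDR = 0.593). The 3 Mastermind-like genes thus gave −0.02, −0.46 and 0.39, and none of them passed FDR < 0.05.

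Among 12 co-repressors, 10 were tested. *Cir1*, a co-repressor that binds RBPJ, had 956 and 1039 counts in WT and 865 and 735 in the libraries labelled TopBP1cKO, all below WT. The difference of −0.39 ± 0.14 (log2 fold change, SE) had an FDR of 0.381, and among the alternatives it passed the test only without TopBP1cKO replicate 1 (−0.52, FDR = 0.00591). *Ncor1*, the most abundant of them, was at 4756 to 5739 counts (log2 fold change 0.07). *Fhl1* had 0 to 3 counts and *Bend5* had 3 to 9, and neither was tested.

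In the group for trafficking and turnover of the receptor, *Dtx3l*, an E3 ligase of the Deltex family, was the most abundant gene and had the smallest P of the pathway. It had 4568 and 4331 counts in WT and 3321 and 3642 in the libraries labelled TopBP1cKO, so the groups did not overlap. The log2 fold change was −0.43 ± 0.12 (SE, FDR = 0.34). It was −0.37 without TopBP1cKO replicate 1 and −0.49 without TopBP1cKO replicate 2. Without WT replicate 1 it was −0.34, and without WT replicate 2 it was −0.52. Among the alternatives, *Dtx3l* passed the test only when 1 or the other TopBP1cKO library was left out, which leaves 1 library in that group. *Fbxw7*, an F-box protein that marks the Notch intracellular domain for degradation, had the highest log2 fold change of the group beside *Dtx1*, at 0.05. *Neurl1a* had 0 to 2 counts.

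**Figure D4:**
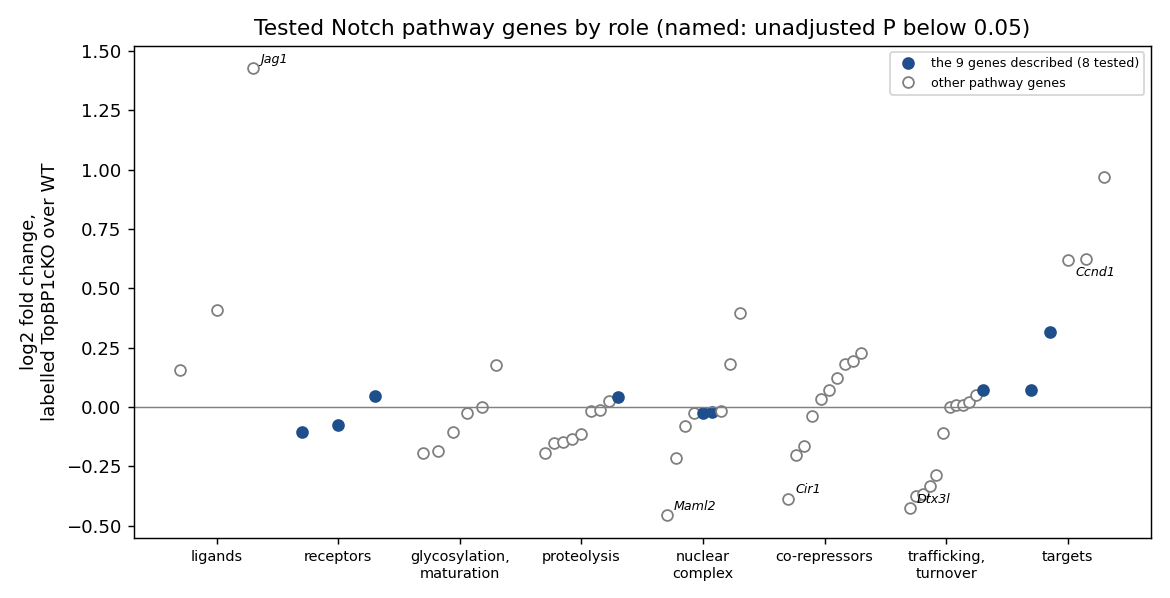
Log2 fold change (libraries labelled TopBP1cKO over WT) of the tested Notch pathway genes by role, with filled points for the 8 tested genes of the 9 described, open points for the others and *Dtx1* drawn under both of its roles. The filled points lie between −0.10 and 0.32, while *Jag1* (1.43) and *Maml2* (−0.46) mark the ends of the range.

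The target genes beside *Hes1*, *Dtx1* and *Nrarp* were few in these cells, apart from *Ccnd1* and *Myc*. The Hes and Hey family repressors *Hes5* (0 or 1 counts) and *Hey2* (0 to 2) were barely counted, and *Hey1* and *Heyl* had 0 counts in all 4 libraries. *Ptcra*, the pre-T cell receptor chain, had 0 to 2 counts. *Il2ra*, the interleukin-2 receptor alpha chain, had 8 and 5 counts in WT and 15 and 12 in the libraries labelled TopBP1cKO (log2 fold change 0.97, FDR = 0.594).

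*Ccnd1*, which encodes cyclin D1, had 3586 and 4074 counts in WT and 4416 and 7935 in the libraries labelled TopBP1cKO. Its log2 fold change of 0.62 ± 0.24 (SE, FDR = 0.43, quasi-likelihood test) was 0.14 without TopBP1cKO replicate 2 and 0.97 (FDR = 2.17e-06) without replicate 1, and with the replicate number as a block it was 0.56 (FDR = 0.0347). *Myc*, which encodes a growth-promoting transcription factor, had 532, 501 and 572 counts in WT replicates 1 and 2 and TopBP1cKO replicate 1, but 1103 in TopBP1cKO replicate 2 (log2 fold change 0.62, FDR = 0.474). *Ccnd1*, *Myc* and *Hes1* were each highest in the library with the highest cell cycle sum. All 20 cell cycle genes had an unadjusted P < 0.05 with higher values in the libraries labelled TopBP1cKO and 0 passed FDR < 0.05, and their median log2 fold change of 1.27 was 0.37 without that library. Its part in the values of these genes was not tested.

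**Figure D5:**
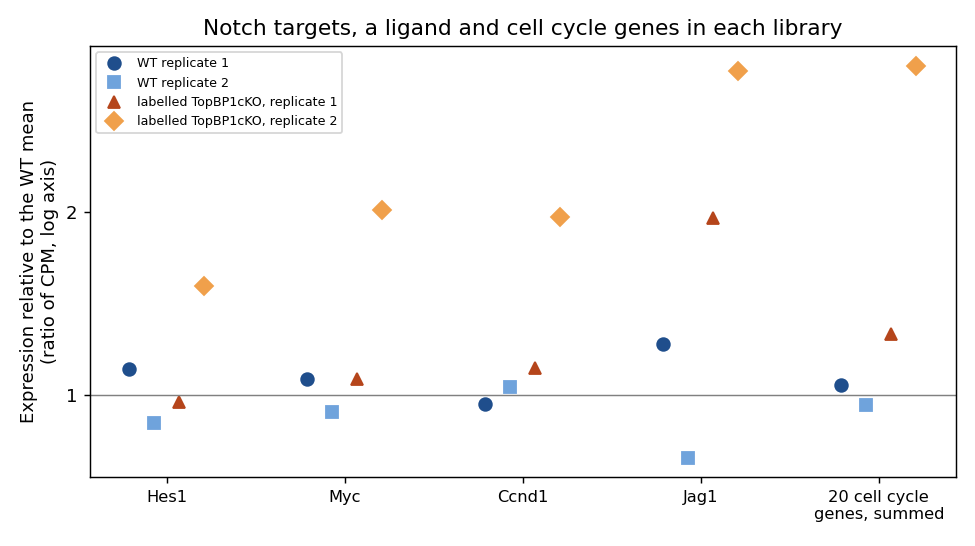
Expression of *Hes1*, *Myc*, *Ccnd1*, *Jag1* and the sum of 20 cell cycle genes in each library, as the ratio of CPM to the mean of the WT libraries (log axis, grey line at 1). TopBP1cKO replicate 2 is the highest library in all 5, and TopBP1cKO replicate 1 lies above both WT libraries for *Ccnd1*, *Jag1* and the cell cycle sum.

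Genes of the Notch2-dependent cDC2 subset were at low levels. *Esam*, an adhesion molecule that marks it, had 7 and 10 counts in WT and 3 and 8 in the libraries labelled TopBP1cKO and was not tested. *Clec4a4*, a C-type lectin gene of the same subset, had 14 and 27 counts in WT and 47 and 39 in the libraries labelled TopBP1cKO (log2 fold change 1.01, FDR = 0.465). *Cd4* had 103 and 127 counts against 129 and 145 (log2 fold change 0.19, FDR = 0.807). In bulk RNA, fewer cells of a type and less RNA per cell cannot be told apart. The cDC2 marker list summed to 151 and 162 CPM in WT and 231 and 265 in the libraries labelled TopBP1cKO. Much of that difference lay in *Itgam* (21.6 and 16.7 against 44.1 and 77.7 CPM) and *Sirpa* (25.4 and 32 against 51.7 and 63.8). Of the 8 tested cDC2 markers, 5 lay above WT, 0 below and 3 overlapped, while 43.6% of all genes tested did not overlap. The neutrophil list summed to 1490 and 1230 CPM in WT against 3200 and 2450 in the libraries labelled TopBP1cKO. Of its 13 genes, 11 lay above WT, 0 below and 2 overlapped, and 5 passed FDR < 0.05 (quasi-likelihood test), against 0.105% of all genes tested. The cDC1 list was at 10500 and 10400 against 10200 and 9460. The part of these lists in the Notch pathway values was not tested.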

How the data were processed

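CD24+ EPs were sorted from spleens and profiled by bulk RNA-seq (CORALL RNA-seq V2 kit, sequenced by ebiogen). RNA extraction is given as TaKaRa RNAiso Plus in the labels and as a RNeasy Mini Kit in the methods. The authors deposited whole-number counts per transcript for each library, without normalization. The submitters' processing notes name fastp, STAR, Salmon, GATK and GRCm39, with no role for each, and whether the counts are rounded estimates is not given in the sources used here. The reference at hand is GRCm38.p6, so no gene coordinates are given, and those of the printed *Rbpj* promoter stretches are GRCm38.p6.

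Counts were summed per gene symbol. Genes that passed filterByExpr (12393) were tested with edgeR 4.0.16 (R 4.3.3; TMM, glmQLFit, glmQLFTest), WT against TopBP1cKO, with Benjamini–Hochberg adjustment over all of them (FDR). SEs were obtained by dividing a log2 fold change by the root of its F statistic, and intervals are 95%. The biological coefficient of variation was 15.2%. CPM used TMM effective library sizes. CPM per kb used RefSeq transcript lengths. No pair of libraries was a duplicate (chi-square per degree of freedom of 11.2 or more). The value was 11.2 to 13.5 among the WT libraries and TopBP1cKO replicate 1. Between TopBP1cKO replicate 2 and each of the others it was 35.9 to 44.2. DESeq2 1.42.0 and limma 3.58.1 were used as alternatives. The tests were tested on simulated data.

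The 9 genes and all lists (8 pathway roles, the Notch2-dependent subset, cell markers and the cell cycle) were chosen with earlier results of these data known. Named were the 9 genes, *Topbp1*, pathway genes with an unadjusted P < 0.05, the most abundant and the largest fold in each direction per role, untested genes, and the 3 genes most like the one with the smallest P. Some genes that this rule names are not reported here. *Myc* was named after its values were seen.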

Additional observations from a re-analysis of the deposited data

How the results depend on the processing

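Of the 9 genes, 0 passed FDR < 0.05 in any of the 12 alternatives (size factors of DESeq2 or the upper quartile as normalization, limma-voom, the Wald test of DESeq2, the likelihood ratio test of edgeR, a minimum of 10 counts in every library or no filter, a replicate block, and each library left out). Leaving out 1 library at a time, where the lone library is assumed to vary like the other group, turned the sign of 7 genes and of *Topbp1*. The log2 fold changes then ran from −0.071 to 0.157 for *Notch1*, −0.222 to 0.008 for *Notch2*, −0.157 to 0.090 for *Rbpj*, −0.045 to 0.596 for *Hes1*, −0.181 to 0.275 for *Dtx1*, −0.085 to 0.167 for *Adam10*, −0.129 to 0.078 for *Maml1* and −0.605 to 0.106 for *Topbp1*. Of the pathway genes tested, the number past FDR < 0.05 ran from 0 to 15 without 1 library. The 15 came without TopBP1cKO replicate 1, when 2625 of 12788 genes (20.5%) passed, and without replicate 2 it was 1. With the replicate block it was also 1 (*Ccnd1*), when 504 genes passed. Whether same-numbered libraries are paired is not given. Their deviations had a correlation of −0.0313 across genes, but with 2 libraries per group this value cannot decide it. Of the 9 genes, *Dtx1* and *Nrarp*, with 3 to 25 counts per library, are those most limited by depth.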
